A study of Mus musculus with 23 samples.

Results

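Innate immune sensing genes were followed across microglia of 2 mouse models of Alzheimer's disease and of wild-type mice. The set held the probe sets whose symbol was Tlr, Nlrp, Nlrc, Nod, Naip, Casp, Irak or Traf followed by a number, together with Myd88, Pycard, Cd14, Ly96 and Gsdmd. This rule gave 58 genes, each read by 1 probe set, of 22203 probe sets in all. They comprised 12 Toll-like receptors, 2 co-receptors (Cd14 and Ly96), 25 cytosolic sensors (18 Nlrp, 2 Nlrc, 2 Nod and 3 Naip genes), 10 adaptors and signal transducers, 8 caspases and Gsdmd. Casp8ap2, Irak1bp1, Nlrp1c-ps, Traf3ip1, Traf3ip2 and Traf3ip3, whose symbols go on after the number with a further name, were not counted.

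Messenger RNA was profiled on microarrays, with biotin as the label of the samples. The 23 samples were CD45+ and CD11b+ microglia sorted out of cortex and hippocampus. The 6 groups were microglia of 12-month-old APPswlnd mice (APP 12m, 4 samples) and of 9-month-old P301S (PS19) mice (TAU 9m, 4 samples), both of which the labels call active and the series' design describes as Clec7a+ cells; microglia of 12-month-old C57BL6 wild-type mice (WT 12m, 4 samples); and microglia of 3-month-old APPswlnd (APP 3m, 3 samples), P301S (PS19) (TAU 3m, 4 samples) and C57BL6 wild-type mice (WT 3m, 4 samples). No Clec7a gate is named for the last 4 groups. The labels also call the gated APP and TAU mice pathologic and the young APP and TAU mice pre-pathology. Genotype, pathology and gate therefore cannot be told apart when a gated group is set against WT 12m. Gated TAU was also 3 months younger than its control. The titles of the gated TAU samples say 12 months and their age fields 9 months, and 9 months was used. The labels call the replicates biological without saying that each came from a separate mouse, and the tests therefore measure the spread of these samples, which may be technical. Neither the promoters of the transgenes nor the sex of the mice is given, and the APP and TAU strains are described only by the names above.

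Values are log2 signals. Precision is limited by the number of arrays: the standard error (SE) of a log2 difference between groups of 4 was 0.226 in the median probe set. Microglial identity was checked on 9 marker genes, all of them above background in all 6 groups. Their mean lay between 14.29 and 14.72 in APP 12m samples, 14.48 and 14.80 in TAU 9m samples and 15.58 and 15.97 in WT 12m samples, and 6 of the 9 were called lower in gated APP and 7 in gated TAU. WT 12m replicates 2 and 4 stood apart from the other wild-type arrays, with the highest signal among them over olfactory, vomeronasal and taste receptor probe sets (median 6.32 in each). A young APP array, replicate 1, had the same median. The pair were the lowest of the 4 WT 12m samples for 13 and 14 of the 26 members that were above background in every group. Single samples of other groups were as often the lowest (TAU 9m replicate 4 for 15, WT 3m replicate 1 for 14 and TAU 3m replicate 4 for 13). The remaining samples of those groups were the lowest for 1 to 7 members each, but WT 12m replicates 1 and 3 for 0 and 1. The WT 12m pair was thus low together. Since the pair makes up 2 of the 4 controls, the counts of calls and the called members are given with and without it, and the other samples were left out 1 at a time. Y-linked genes varied within and between groups, with sample means from 4.16 to 7.13 in APP 12m, 4.50 to 6.78 in TAU 9m and 6.06 to 7.31 in WT 12m, and their mean was tried as a covariate.

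Toll-like receptors sense microbial lipids, proteins and nucleic acids at the cell surface or in endosomes, and pass the signal through Myd88, Irak kinases and Traf ubiquitin ligases to NF-kB. NOD-like receptors work in the cytosol. Several of them recruit the adaptor ASC (encoded by Pycard) and caspase-1 into an inflammasome, which matures interleukin-1 beta and cleaves gasdermin D into a membrane pore. In microglia both routes are known as responders to microbial products and to protein aggregates.

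Much of the set did not rise above the background level used here. Background was taken as the 95th percentile of the group means of 1447 olfactory, vomeronasal and taste receptor probe sets, which lay between 7.73 and 8.12 in the 6 groups. By this measure 28 of 58 members were at background in every group, 4 were above it in some groups and 26 were above it in every group. The cytosolic sensors accounted for 19 of the 28, namely Nlrc3, Nlrc4, Nlrp2, Nlrp4a, Nlrp4b, Nlrp4c, Nlrp4e, Nlrp4f, Nlrp4g, Nlrp5, Nlrp6, Nlrp9a, Nlrp9b, Nlrp9c, Nlrp10, Nlrp12, Nlrp14, Nod1 and Nod2. The others at background were Tlr8, Tlr11, Traf1, Traf2, Traf5, Casp6, Casp9, Casp12 and Casp14. Of the 37 sensors (Toll-like and cytosolic), 13 were above background in every group, as were 11 of the 19 adaptors, caspases and gasdermin together and both co-receptors. Levels of different genes were not ranked against each other, since each probe set has its own sensitivity.

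In gated APP microglia against WT 12m, 5 members were called higher and 5 lower at an adjusted p under 0.05. Cd14, Tlr2, Irak3, Nod2 and Tlr1 were higher, and Tlr5, Nlrp1b, Casp8, Tlr3 and Nlrp1a were lower. Over all probe sets 5.6% were called higher and 3.48% lower. In gated TAU microglia against the same WT 12m samples, 5 were also called higher (Tlr2, Tlr1, Cd14, Tlr8 and Pycard) and 5 lower (Tlr5, Casp8, Nlrp9b, Tlr3 and Nlrp1b), where 5.09% of all probe sets were called higher and 3.67% lower. An alternative chosen after seeing the data left out WT 12m replicates 2 and 4. The counts were then 4 higher and 7 lower in gated APP, and 3 higher and 4 lower in gated TAU. Shares of all probe sets called are not given here for this or any other alternative fit, so such counts cannot be set against them. Both comparisons use the same 4 control samples, so the values of the members are set side by side below and their overlap is not read as a result. In bulk samples, fewer cells of a type and less RNA per cell cannot be told apart.

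**Figure D1:**
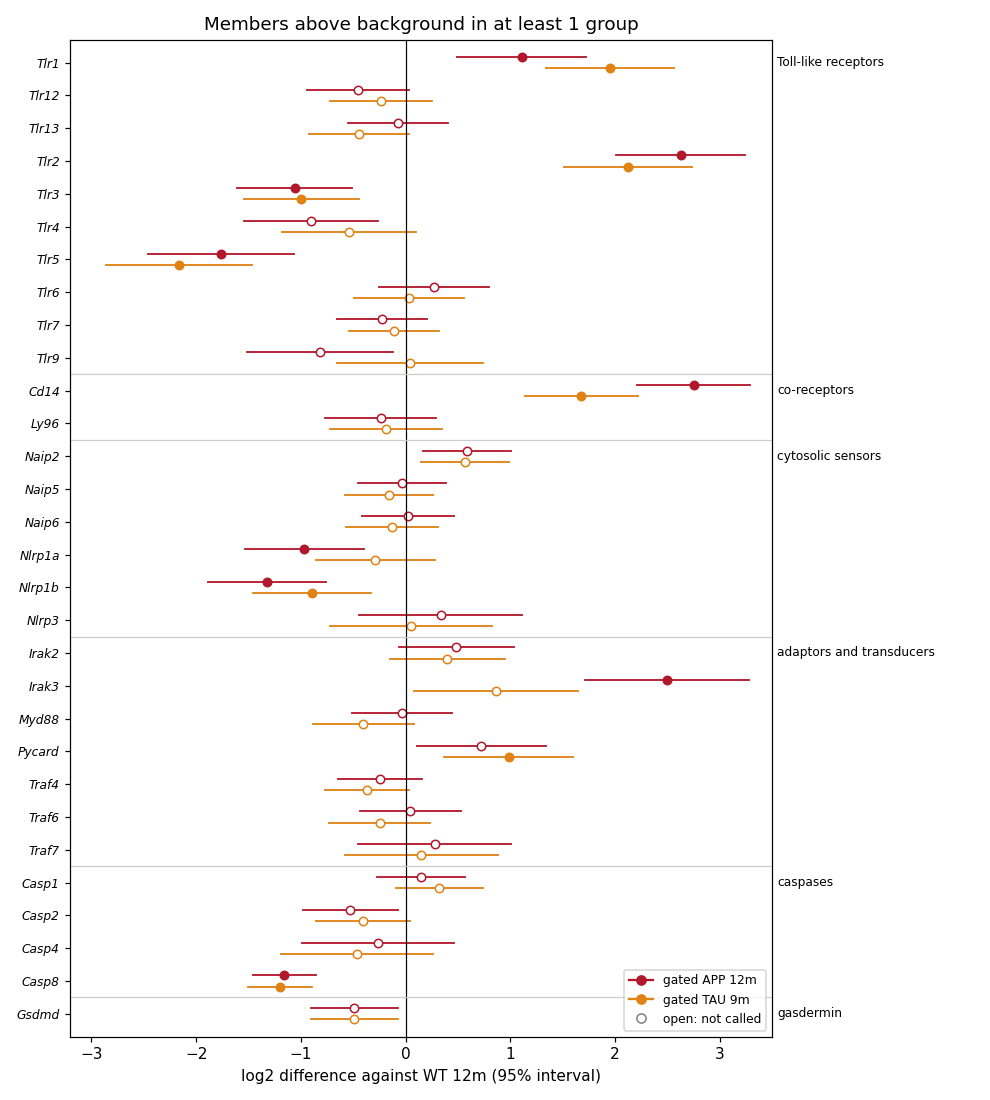
Log2 difference against WT 12m (x axis) of the 30 members above background in at least 1 group (y axis, by class), for gated APP 12m (red, upper of each pair) and gated TAU 9m (orange, lower); lines are 95% intervals and filled points are called. Tlr2, Tlr1 and Cd14 lie right of 0 and Tlr5, Tlr3, Nlrp1b and Casp8 left of 0 in both, while the intervals of Nlrp3, Casp1, Myd88 and Ly96 cross 0.

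Among the Toll-like receptors, the surface pair Tlr2 and Tlr1 was higher in both gated groups. Tlr2 binds bacterial lipopeptides and works as a heterodimer with Tlr1 or Tlr6. Tlr2 signal was 12.93, 13.87, 12.93 and 13.22 in APP 12m samples and 12.44, 13.34, 12.95 and 12.22 in TAU 9m samples, against 11.03, 10.83, 10.79 and 9.80 in WT 12m samples. Every gated sample lay above every WT 12m sample. Such a separation upward was seen in 6.72% of all probe sets in gated APP and 6.38% in gated TAU, and a separation downward in 4.83% in gated APP and 5.55% in gated TAU. The difference was 2.62 ± 0.30 (SE) in gated APP, or 6.17-fold (adjusted p = 1.29e-06), and 2.12 ± 0.30 in gated TAU, or 4.36-fold (adjusted p = 3.54e-05). With WT 12m replicates 2 and 4 left out the difference was 2.33 in gated APP and 1.83 in gated TAU, and both stayed called. In the young groups Tlr2 averaged 10.49 ± 0.29 in APP 3m (SD, n = 3) and 10.23 ± 0.56 in TAU 3m (n = 4), against 10.60 ± 0.09 in WT 3m (n = 4).

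The Tlr2 promoter is shown because the gene was among the most raised and its promoter held the NF-kB consensus at separate places. In the RefSeq promoter table (GRCm38.p6, 250 bases before to 50 after the start, given along the gene's strand), a search of both strands for the NF-kB consensus gave matches at bases 78 to 88, where 2 overlapping matches lie, and at bases 243 to 252. The window is chr3:83841559-83841858, minus strand, and the matches are in capitals.
Tlr2: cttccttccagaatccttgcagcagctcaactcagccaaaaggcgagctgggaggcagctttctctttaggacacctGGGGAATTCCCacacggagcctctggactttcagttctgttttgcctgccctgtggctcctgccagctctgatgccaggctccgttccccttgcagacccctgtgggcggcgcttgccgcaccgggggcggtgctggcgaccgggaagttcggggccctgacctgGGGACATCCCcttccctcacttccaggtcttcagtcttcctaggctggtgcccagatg
This consensus was found in 8.46% of all 32851 promoters in the table and in 6 of 60 promoters of members. These belonged to 5 of the 50 members that the table held (Casp4, Naip5, Nlrp3, Tlr2 and Tlr3). Of these 5, Tlr2 was called higher, Tlr3 was called lower and the other 3 were not called in either gated group. A match describes letters in the window and does not show binding.

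Tlr1 signal was 10.46, 11.30, 10.91 and 10.89 in APP 12m samples and 12.01, 11.79, 12.12 and 11.02 in TAU 9m samples, against 9.98, 9.78, 10.09 and 9.28 in WT 12m samples. No gated sample overlapped the WT 12m range, and the TAU samples sat mostly above the APP samples. The difference was 1.11 ± 0.30 in gated APP (2.15-fold, adjusted p = 0.0174) and 1.95 ± 0.30 in gated TAU (3.87-fold, adjusted p = 0.000105). The APP call was lost without WT 12m replicate 4 (adjusted p = 0.0765), without APP 12m replicate 2 (adjusted p = 0.0611) and without WT 12m replicates 2 and 4 together (0.85, adjusted p = 0.213). The TAU difference without that pair was 1.70, still called. Gated APP minus gated TAU was -0.84 for Tlr1, which was not called (adjusted p = 0.279). Tlr6, the other partner of Tlr2 and the neighbouring gene of Tlr1 in the RefSeq annotation, differed by 0.27 in gated APP (95% interval -0.25 to 0.80) and by 0.04 in gated TAU (-0.49 to 0.56), and was not called. Probes for Tlr1 and Tlr6, which are close relatives, may share targets, and the probe sequences were not used here.

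Tlr5, the flagellin receptor, was lower in both gated groups. Its signal was 6.34, 6.49, 6.68 and 6.47 in APP 12m samples and 6.59, 5.05, 6.84 and 5.90 in TAU 9m samples, against 7.85, 7.66, 9.05 and 8.46 in WT 12m samples. All 8 gated samples lay below all WT 12m samples, and below background, while WT 12m lay close to background. The log2 difference was -1.76 ± 0.34 in gated APP (adjusted p = 0.000990) and -2.16 ± 0.34 in gated TAU (adjusted p = 0.000144), and because the gated means are at background the falls are given as at least 1.43-fold in APP and at least 1.34-fold in TAU. With WT 12m replicates 2 and 4 left out the difference was -1.96 in gated APP and -2.36 in gated TAU, both called. Young groups were above background, at 8.80 ± 0.44 in APP 3m, 8.49 ± 0.48 in TAU 3m and 8.50 ± 0.28 in WT 3m.

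Tlr3, the endosomal receptor for double-stranded RNA, which signals without Myd88, was also lower. Its signal was 12.04, 12.73, 12.17 and 12.34 in APP 12m samples and 12.85, 12.40, 12.21 and 12.08 in TAU 9m samples, against 13.75, 13.18, 13.29 and 13.30 in WT 12m samples. The gated samples did not overlap WT 12m. Without WT 12m replicates 2 and 4 the difference was -1.20 in gated APP and -1.14 in gated TAU, both called. With all samples it was -1.06 ± 0.26 in gated APP (2.08-fold lower, adjusted p = 0.0105) and -0.99 ± 0.26 in gated TAU (1.99-fold lower, adjusted p = 0.0187). The TAU call was lost without WT 12m replicate 1 (adjusted p = 0.0712), TAU 9m replicate 3 (0.0566) or TAU 9m replicate 4 (0.0544).

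Tlr4, the receptor for bacterial lipopolysaccharide (LPS), was not called. Its signal was 8.52, 8.15, 7.45 and 7.43 in APP 12m samples and 8.57, 8.86, 7.86 and 7.69 in TAU 9m samples, against 8.80, 9.30, 8.93 and 8.12 in WT 12m samples. The gated ranges overlapped WT 12m, and the difference was -0.90 ± 0.31 in gated APP (adjusted p = 0.0752) and -0.54 ± 0.31 in gated TAU (adjusted p = 0.322). It was -0.98 and -0.62 without WT 12m replicates 2 and 4, in APP and TAU, and not called. The APP difference passed the threshold when dim probe sets were left out (adjusted p = 0.0428), without WT 12m replicate 4 (0.0311) and without APP 12m replicate 1 (0.0359). It also passed, and most clearly, with a replicate block in the fit (adjusted p = 0.00159). The lack of a call for Tlr4 in gated APP thus depended on treating the samples as unpaired, among other settings.

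The nucleic acid receptors of the endosome other than Tlr3 gave few calls. Tlr7, which senses single-stranded RNA, had a signal of 17.03, 16.94, 16.70 and 16.89 in APP 12m and 16.94, 17.14, 16.99 and 16.95 in TAU 9m, against 17.51, 17.26, 16.98 and 16.71 in WT 12m. The groups overlapped, and the intervals of the difference were -0.66 to 0.21 in gated APP and -0.54 to 0.32 in gated TAU. Tlr9, the receptor for unmethylated CpG DNA, differed by -0.82 in gated APP (adjusted p = 0.147) and 0.04 in gated TAU. Tlr13, which in mice senses bacterial ribosomal RNA, differed by -0.07 in gated APP and -0.45 in gated TAU and was called against neither WT 12m comparison. Tlr8, the neighbour of Tlr7 on the X chromosome, was called higher in gated TAU (1.29 ± 0.41, adjusted p = 0.0491), although its group means were at background. Its signal was 7.35, 6.80, 9.23 and 6.35 in TAU 9m, against 6.19, 5.74, 6.34 and 6.30 in WT 12m, and 5.39, 5.74, 5.95 and 6.04 in APP 12m. Replicate 3 of gated TAU was the single sample of these above background, and without it the difference was 0.69 (adjusted p = 0.175). The call was also lost without WT 12m replicates 2 and 4 (adjusted p = 0.219). Of 16 alternatives run, 5 kept it.

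**Figure D2:**
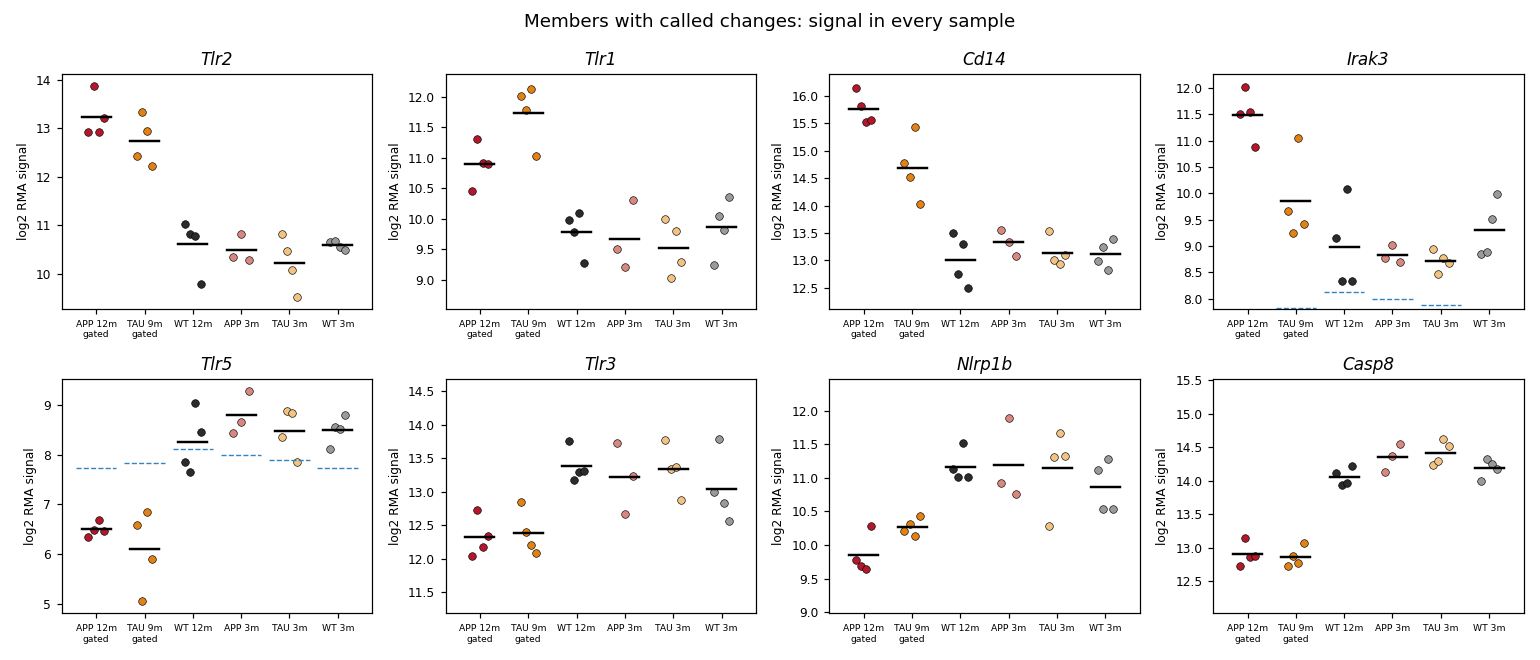
Log2 signal (y axis) in every sample of the 6 groups (x axis, gated groups left) for 8 members called against WT 12m; points are samples, black bars group means and dashed blue lines the background of the group where it falls within the axis. Tlr2, Tlr1 and Cd14 are raised in both gated groups and Irak3 most in gated APP, while Tlr5, Tlr3, Nlrp1b and Casp8 are lowered in both and the 4 ungated groups lie close together.

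The co-receptors parted. Cd14, a surface protein that hands LPS to the Tlr4 complex and lipopeptides to Tlr2, had the largest rise of the set in gated APP. Its signal was 16.15, 15.82, 15.52 and 15.56 in APP 12m samples and 14.77, 14.53, 15.44 and 14.02 in TAU 9m samples, against 13.50, 12.75, 13.30 and 12.50 in WT 12m samples. Every APP sample was above every TAU sample (so for 2.56% of all probe sets), and every TAU sample above every WT 12m sample. The difference was 2.75 ± 0.26 in gated APP (6.73-fold, adjusted p = 9.33e-08) and 1.68 ± 0.26 in gated TAU (3.20-fold, adjusted p = 0.000134). It was 2.36 in gated APP and 1.29 in gated TAU, and still called, without WT 12m replicates 2 and 4. Ly96, the protein that binds LPS within the Tlr4 complex, had a signal of 8.69, 9.28, 9.53 and 8.68 in APP 12m and 9.49, 9.00, 9.20 and 8.69 in TAU 9m, against 9.74, 8.92, 9.42 and 9.05 in WT 12m. These ranges overlapped, with 95% intervals of the difference of -0.77 to 0.29 in gated APP and -0.72 to 0.34 in gated TAU.

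Among the cytosolic sensors, the called changes above background were confined to the Nlrp1 genes in these 2 comparisons. Nlrp1b is an inflammasome sensor that in some mouse strains responds to anthrax lethal factor. Its signal was 9.78, 9.68, 9.64 and 10.28 in APP 12m samples and 10.21, 10.31, 10.14 and 10.43 in TAU 9m samples, against 11.14, 11.01, 11.52 and 11.01 in WT 12m samples. All gated samples were below all WT 12m samples. The difference was -1.32 ± 0.27 in gated APP (2.51-fold lower, adjusted p = 0.00204) and -0.90 ± 0.27 in gated TAU (1.86-fold lower, adjusted p = 0.0415). The TAU call was lost without any single one of the 8 samples (adjusted p from 0.0512 to 0.0999) and under both scaling alternatives (0.0683 and 0.0822), while the APP call was kept in all alternatives run. Leaving out WT 12m replicates 2 and 4 gave -1.48 in gated APP, called, and -1.06 in gated TAU, not called (adjusted p = 0.0778). Its neighbour Nlrp1a averaged 7.54 ± 0.55 in APP 12m, which is at background, against 8.51 ± 0.31 in WT 12m (at least 1.70-fold lower, adjusted p = 0.0262, and 0.0456 without WT 12m replicates 2 and 4). In TAU 9m Nlrp1a averaged 8.22 ± 0.50 and was not called (-0.29, adjusted p = 0.587).

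Nlrp1a and Nlrp1b are adjacent copies, and their promoters are printed to show how alike these windows are. Array probes may not tell such copies apart, but probes read transcripts, so the likeness of the promoters does not bear on that. Both promoters (RefSeq, GRCm38.p6) held the PU.1 core GAGGAAGT, in capitals, on the gene's strand. Nlrp1a is at chr11:71144655-71144954 and Nlrp1b at chr11:71230684-71230983, both on the minus strand; the second has 2 starts in the table and the start with the match is shown.
Nlrp1a: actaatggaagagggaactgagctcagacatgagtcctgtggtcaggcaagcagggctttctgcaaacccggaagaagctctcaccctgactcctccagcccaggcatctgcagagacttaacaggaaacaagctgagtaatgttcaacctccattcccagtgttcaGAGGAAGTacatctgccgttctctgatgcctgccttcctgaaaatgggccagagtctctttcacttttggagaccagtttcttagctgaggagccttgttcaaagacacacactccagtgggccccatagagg
Nlrp1b: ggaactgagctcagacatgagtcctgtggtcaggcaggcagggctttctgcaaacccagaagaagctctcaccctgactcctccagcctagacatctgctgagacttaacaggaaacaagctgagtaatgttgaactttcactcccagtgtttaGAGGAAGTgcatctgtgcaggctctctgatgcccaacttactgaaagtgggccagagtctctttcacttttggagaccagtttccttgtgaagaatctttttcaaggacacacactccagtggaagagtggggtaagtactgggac
In a global alignment with free end gaps, 254 of 282 aligned bases were identical (90.1%). The PU.1 core, searched on both strands, was found in 3.2% of all promoters and in 8 of 60 promoters of members. These belonged to 8 of the 50 members in the table (Nlrp1a, Nlrp1b, Nlrp4c, Pycard, Tlr1, Tlr9, Tlr11 and Traf7), among which calls were in both directions or absent. PU.1 is a transcription factor of the myeloid lineage. The pseudogene copy Nlrp1c-ps, which is no member, was lower too, by -1.78 ± 0.32 in gated APP (adjusted p = 0.000476), and differed by -0.95 in gated TAU without being called. Whether the 3 probe sets read separate transcripts was not tested.

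Nlrp3, a sensor widely studied in models of amyloid and tau, was well above background and not called. Its signal was 12.80, 13.09, 12.76 and 12.37 in APP 12m samples and 12.30, 12.22, 13.23 and 12.14 in TAU 9m samples, against 12.90, 12.23, 12.67 and 11.88 in WT 12m samples. The groups overlapped, with a difference of 0.34 in gated APP (95% interval -0.44 to 1.11) and 0.05 in gated TAU (-0.72 to 0.83). Naip2, which with Nlrc4 detects rod proteins of bacterial secretion systems, differed by 0.58 ± 0.20 in gated APP (adjusted p = 0.0800) and 0.57 ± 0.20 in gated TAU (adjusted p = 0.0895), without being called. Its neighbours Naip5 and Naip6, which detect flagellin, differed by -0.03 and 0.02 in gated APP and by -0.16 and -0.13 in gated TAU. Nod2, which senses a peptidoglycan fragment, was called higher in gated APP (1.57 ± 0.30, adjusted p = 0.00108), with a signal of 6.82, 6.25, 6.32 and 5.78 in APP 12m, against 4.73, 4.99, 4.98 and 4.20 in WT 12m. In TAU 9m Nod2 was at 5.83, 5.36, 6.03 and 4.65, and was not called (0.74, adjusted p = 0.141). The TAU difference was called without TAU 9m replicate 4 (1.01, adjusted p = 0.0335) and when the fit also held the mean of Y-linked probe sets (0.99, adjusted p = 0.0281). Leaving out WT 12m replicates 2 and 4 gave 1.44 in gated APP, called, and 0.61 in gated TAU. All these Nod2 values lie below background, so no fold is given. Nlrp9b, with a signal of 4.07, 4.74, 5.14 and 4.97 in TAU 9m, against 5.40, 6.01, 5.37 and 6.55 in WT 12m, was called lower in gated TAU (-1.10, adjusted p = 0.0357) and was likewise below background throughout. Nlrp9b was at 5.11, 5.42, 4.67 and 5.39 in APP 12m and was not called. Its TAU difference was -0.66 without WT 12m replicates 2 and 4 (adjusted p = 0.376).

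**Figure D3:**
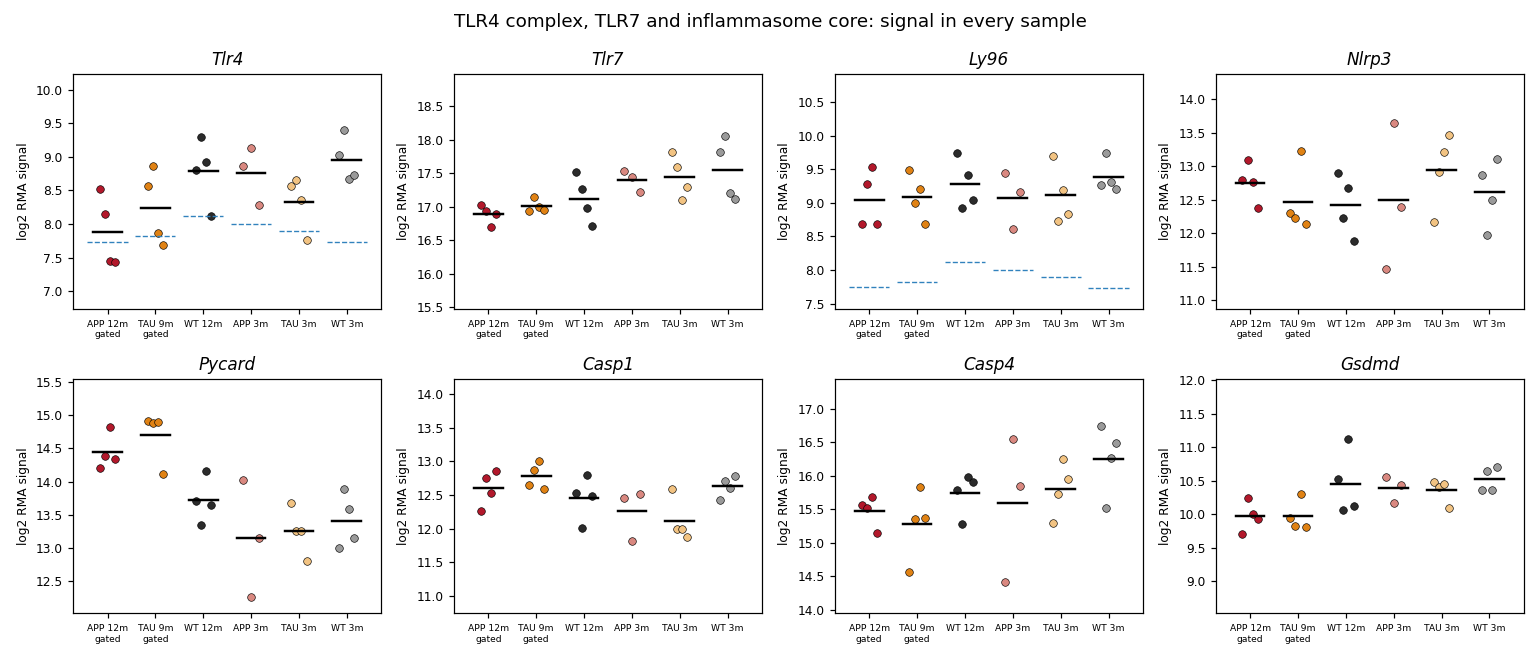
Log2 signal (y axis) in every sample of the 6 groups (x axis, gated groups left) for Tlr4, Tlr7, Ly96 and the inflammasome genes Nlrp3, Pycard, Casp1, Casp4 and Gsdmd; points are samples, black bars group means and dashed blue lines background where it falls within the axis. Gated and WT 12m samples overlap in these genes, except for Pycard, where the 4 APP 12m samples (14.20 to 14.83) lie above the 4 WT 12m samples (13.35 to 14.16).

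Of the 10 adaptors and transducers, Irak3 was called in gated APP and Pycard in gated TAU. Irak3, or IRAK-M, is a kinase relative without kinase activity that restrains Toll-like receptor signalling in macrophages. Its signal was 11.50, 12.01, 11.54 and 10.87 in APP 12m samples and 9.67, 9.25, 11.04 and 9.42 in TAU 9m samples, against 9.16, 8.34, 10.09 and 8.34 in WT 12m samples. All APP samples lay above WT 12m, while the TAU samples overlapped WT 12m and spread widely, with replicate 3 the highest. The difference was 2.50 ± 0.38 in gated APP (5.65-fold, adjusted p = 7.01e-05) and 0.86 ± 0.38 in gated TAU (adjusted p = 0.176). Without WT 12m replicates 2 and 4 it was 1.86 in gated APP, still called, and 0.22 in gated TAU. Without WT 12m replicate 3, the highest control, the TAU difference was 1.23 and was called (adjusted p = 0.0262).

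Pycard, the ASC adaptor that links sensors to caspase-1, had a signal of 14.20, 14.39, 14.83 and 14.34 in APP 12m samples and 14.91, 14.88, 14.90 and 14.11 in TAU 9m samples, against 13.71, 13.35, 14.16 and 13.65 in WT 12m samples. The APP samples did not overlap WT 12m, but the difference of 0.72 ± 0.30 was not called (adjusted p = 0.151). The TAU difference was 0.98 ± 0.30, or 1.98-fold (adjusted p = 0.0416), with replicate 4 inside the WT 12m range. That call was lost without WT 12m replicate 1, 2 or 4 or TAU 9m replicate 1, 2 or 3 (adjusted p from 0.0841 to 0.129), and without WT 12m replicates 2 and 4 together (0.77, adjusted p = 0.278). Myd88, the adaptor of most Toll-like receptors, had a signal of 10.88, 10.79, 10.77 and 10.57 in APP 12m and 10.21, 9.95, 10.76 and 10.61 in TAU 9m, against 11.05, 10.08, 10.81 and 11.21 in WT 12m. Its groups overlapped, with a difference of -0.04 in gated APP (95% interval -0.52 to 0.45) and -0.41 in gated TAU (-0.89 to 0.08). Irak2, a kinase of the same relay, differed by 0.48 in gated APP and 0.40 in gated TAU, and was not called. The ubiquitin ligase Traf6 differed by 0.04 in gated APP and -0.25 in gated TAU, and was not called. Traf4 and Traf7 were above background and not called, and Traf1, Traf2 and Traf5 stayed at background.

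Of the 8 caspases, Casp8 was the one called. Casp8 starts apoptosis downstream of death receptors, restrains necroptosis and can also cleave interleukin-1 beta and gasdermin D. Its signal was 12.73, 13.14, 12.86 and 12.87 in APP 12m samples and 12.72, 12.87, 12.77 and 13.07 in TAU 9m samples, against 14.11, 13.94, 13.96 and 14.22 in WT 12m samples. The 8 gated samples spanned a narrow range well below WT 12m. The difference was -1.16 ± 0.15 in gated APP (2.23-fold lower, adjusted p = 6.21e-06) and -1.20 ± 0.15 in gated TAU (2.30-fold lower, adjusted p = 5.73e-06). It was -1.14 in gated APP and -1.18 in gated TAU, and still called, without WT 12m replicates 2 and 4. Young groups were at 14.35 ± 0.21 in APP 3m, 14.41 ± 0.18 in TAU 3m and 14.19 ± 0.14 in WT 3m, so the 15 ungated samples (13.94 to 14.62) did not meet the 8 gated ones (12.72 to 13.14). The share of all probe sets that part these samples in this way was not counted.

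The inflammatory caspases, which lie side by side in the genome, were not called. Casp1, which matures interleukin-1 beta, had a signal of 12.26, 12.76, 12.53 and 12.86 in APP 12m samples and 12.65, 12.88, 13 and 12.59 in TAU 9m samples, against 12.53, 12.01, 12.80 and 12.49 in WT 12m samples. Casp4, the mouse caspase that binds cytosolic LPS, had 15.57, 15.52, 15.68 and 15.15 in APP 12m and 14.56, 15.35, 15.83 and 15.37 in TAU 9m, against 15.79, 15.28, 15.98 and 15.91 in WT 12m. Both genes overlapped between groups. The intervals of the Casp1 difference were -0.27 to 0.56 in gated APP and -0.10 to 0.74 in gated TAU, and those of Casp4 were -0.99 to 0.47 in gated APP and -1.19 to 0.26 in gated TAU. Casp2 differed by -0.53 in gated APP (adjusted p = 0.151) and -0.41 in gated TAU (adjusted p = 0.289). Gsdmd, the pore protein that these caspases cleave, had a signal of 9.71, 10.24, 10 and 9.93 in APP 12m samples and 9.95, 9.82, 10.30 and 9.81 in TAU 9m samples, against 10.53, 10.07, 11.12 and 10.12 in WT 12m samples. The ranges overlapped, and the difference was -0.49 ± 0.20 in each gated group (adjusted p = 0.145 in APP and 0.142 in TAU). Without WT 12m replicates 2 and 4 it was -0.86 in each and was called (adjusted p = 0.0170 in APP and 0.0200 in TAU).

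When sensors were set beside adaptors, caspases and gasdermin, most members of both classes were not called. In gated APP, 3 of 37 sensors were higher and 4 lower, with a median log2 difference of -0.07, while 1 of the 19 adaptors, caspases and gasdermin was higher and 1 lower, with a median of 0.10. In gated TAU the same counts were 3 and 4 of 37, with a median of -0.04, and 1 and 1 of 19, with a median of 0.09. The median over all probe sets was -0.06 in gated APP and -0.05 in gated TAU. These medians include the members at background in every group, 21 of the 37 sensors and 7 of the 19 others. No test of the classes against each other was made.

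A single F test over the 6 groups called 13 of 58 members, against 16.5% of all probe sets and 34.3% of the 7944 probe sets whose mean was above background. These were Casp8, Tlr2, Cd14, Tlr5, Tlr1, Irak3, Pycard, Nod2, Nlrp1b, Tlr3, Naip2, Casp2 and Tlr13, of which 8 were sensors, 4 adaptors or caspases and 1 a co-receptor. Casp8 had the lowest adjusted p (8.20e-09), followed by Tlr2 (4.47e-08) and Cd14 (5.04e-08).

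**Figure D4:**
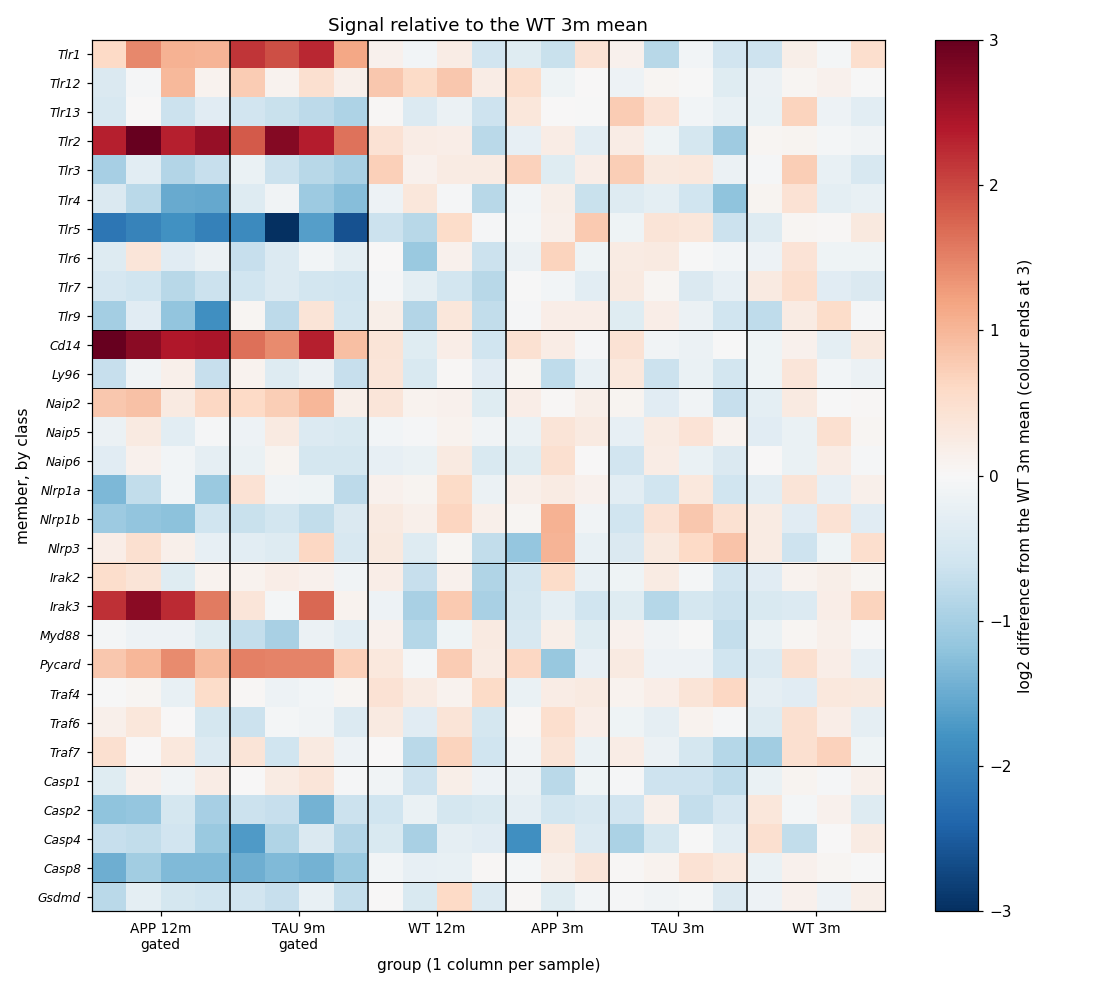
Log2 difference of each sample (columns, by group, gated groups left) from the WT 3m mean for the 30 members above background in at least 1 group (rows, by class: Toll-like receptors, co-receptors, cytosolic sensors, adaptors and transducers, caspases, gasdermin); red is higher, blue lower and the colour ends at 3. The 8 gated samples are red at Tlr2, Cd14, Tlr1 and Pycard, with Tlr1 and Pycard paler in the APP samples, and blue at Tlr5 and Casp8. Irak3 is red in the 4 APP samples and TAU 9m replicate 3, and the 15 ungated samples are mostly pale.

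Gated APP and gated TAU microglia were also set against each other, a comparison in which both carry the Clec7a gate but differ in strain and in age by 3 months. Here 2 members were called, both higher in gated APP, where 0.626% of all probe sets were called higher. Irak3 differed by 1.64 ± 0.38 (adjusted p = 0.0318) and Cd14 by 1.07 ± 0.26 (adjusted p = 0.0461), with no overlap for Cd14 and with TAU 9m replicate 3 (11.04) inside the APP range for Irak3. Neither call was kept when arrays were centred on their median, when these 2 groups were fitted alone, or without APP 12m replicate 1, 2 or 3 or TAU 9m replicate 1, 2 or 4. Tlr8 differed by -1.65 ± 0.41 and was just short of the threshold (adjusted p = 0.0514). Casp8 differed by 0.04 and Tlr2 by 0.50, without being called.

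No member was called between the ungated groups. In young APP against young WT, where no probe set was called (0%), 0 of 58 members had an unadjusted p under 0.05 in limma, and differences ran from -0.66 to 0.45. In young TAU against young WT, again with 0% of probe sets called, 2 members had an unadjusted p under 0.05 (Casp1 and Nlrp5), and differences ran from -0.62 to 0.64. In WT 12m against WT 3m, where 0.036% of probe sets were called, 3 had an unadjusted p under 0.05 (Nlrp2, Nod1 and Tlr12), and differences ran from -0.52 to 0.60. These counts of 0 held in all alternatives run. The 95% intervals of the Cd14 difference were -0.36 to 0.80 in young APP, -0.50 to 0.57 in young TAU and -0.63 to 0.44 in ageing WT, so a Cd14 change of the size seen in either gated group lay outside them.

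Set against young microglia of the same strain, both gated groups gave 12 calls. Gated APP 12m against APP 3m gave 6 higher (Cd14, Irak3, Nod2, Pycard, Tlr1 and Tlr2; 6.19% of all probe sets) and 6 lower (Casp8, Nlrp1a, Nlrp1b, Tlr3, Tlr5 and Tlr9; 5.95%). Without APP 3m replicate 2, which left 2 young APP samples, 3 were higher and 4 lower (share of all probe sets not given). Gated TAU 9m against TAU 3m gave 7 higher (Casp1, Cd14, Irak3, Naip2, Pycard, Tlr1 and Tlr2; 6.67%) and 5 lower (Casp8, Nlrp1b, Tlr3, Tlr5 and Tlr13; 6.81%). Pycard was 1.30 ± 0.32 higher in gated APP (adjusted p = 0.00826) and 1.45 ± 0.30 higher in gated TAU (adjusted p = 0.00159) than in the young groups. Casp1 was 0.66 ± 0.20 higher in gated TAU than in young TAU (adjusted p = 0.0301), where the young TAU mean was itself the lowest of the 6 groups (12.12 ± 0.32). Age, pathology and gate cannot be told apart in these comparisons.

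The difference between the older and the young group of each strain, here called the change with age, was then tested against that in WT. The gate and the pathologic label were present only in the older APP and TAU groups. Age, pathology and gate therefore cannot be told apart in this contrast either. The older TAU samples were also younger than the older WT samples, so the TAU term spanned fewer months than the WT term. In APP, 3 members differed more upward than in WT (Irak3, Tlr2 and Cd14; 2.82% of all probe sets) and 3 more downward (Tlr5, Nlrp1b and Casp8; 0.977%). In TAU, 3 differed more upward (Tlr2, Tlr1 and Cd14; 2.6%) and 2 more downward (Tlr5 and Casp8; 1.15%). For Casp8 the interaction was -1.31 ± 0.21 in APP (adjusted p = 0.000462) and -1.43 ± 0.21 in TAU (adjusted p = 0.000133). Without WT 12m replicates 2 and 4 there were 3 and 3 in APP, and 2 and 2 in TAU (shares of all probe sets not given).

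Other genes of these pathways were counted from lists of partners, and the counts can be read beside the shares of all probe sets called higher and lower, 5.6% and 3.48% in gated APP and 5.09% and 3.67% in gated TAU. Of 20 Toll-like receptor partners measured, 4 were called higher and 1 lower in each gated group. Cd180, a Toll-like receptor relative that pairs with Ly86, was higher by 1.18 ± 0.25 in gated APP and 1.33 ± 0.25 in gated TAU. Tank, an adaptor that binds Traf proteins, was higher by 2.27 ± 0.36 in gated APP and 2.26 ± 0.36 in gated TAU, and Tab2, an adaptor of the Tak1 kinase, was lower by -0.76 in gated APP and -0.998 in gated TAU. Irf7 was called higher in both, with its means at background in all 3 groups. The list gave 3 higher and 1 lower in each gated group when WT 12m replicates 2 and 4 were left out. None of 12 NF-kB core genes was called in either gated group by limma, with 2 at an unadjusted p under 0.05 in gated APP and 0 in gated TAU.

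Of 19 NOD-like receptor and inflammasome partners measured, 2 were called higher and 1 lower in each gated group. Il1b, the cytokine that caspase-1 matures, averaged 18.17 ± 0.59 in APP 12m and 18.33 ± 0.42 in TAU 9m, against 15.17 ± 0.62 in WT 12m (adjusted p = 2.26e-06 for APP and 1.53e-06 for TAU). Il1rn, the secreted antagonist of its receptor, averaged 10.41 ± 0.93 in APP 12m and 10.13 ± 1.07 in TAU 9m, against 5.15 ± 0.27 in WT 12m, which is background, so it was at least 4.89-fold higher in gated APP and at least 4.02-fold higher in gated TAU. Txnip, a thioredoxin inhibitor reported to bind Nlrp3, was lower, by -1.89 ± 0.17 in gated APP and -1.81 ± 0.17 in gated TAU. All 3 stayed called in both gated groups without WT 12m replicates 2 and 4, when the list gave 2 higher and 3 lower in gated APP and 2 higher and 1 lower in gated TAU. Of 8 cytosolic nucleic acid sensing genes, 4 were called higher in each gated group, among them Dhx58 (2.46 in APP and 2.50 in TAU), a regulator of RNA helicase sensing, Zbp1 (at least 3.54-fold in APP and at least 3.75-fold in TAU), a sensor of Z-form nucleic acids, and Trim25 (1.71 in APP and 1.33 in TAU), a ubiquitin ligase of the RNA sensing route. Sting1, the adaptor for cytosolic DNA, was lower by -1.72 ± 0.23 in gated APP and -0.75 ± 0.23 in gated TAU. Trim25 (adjusted p = 0.0610) and Sting1 (adjusted p = 0.0710) were not called in gated TAU without WT 12m replicates 2 and 4.

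Monocytes, neutrophils and border macrophages share several of these genes, and their markers were read in the same samples. Of 7 monocyte markers, Ccr2, Chil3, F10, Ly6c2, Plac8 and Vcan were at background in every group and Ly6c1 was above it, with none called in either gated group. The mean of the list lay between 6.68 and 7.16 in APP 12m and 6.39 and 6.87 in TAU 9m, against 6.66 to 7.34 in WT 12m. Of 10 neutrophil markers, 1 (Csf3r) was above background in the gated groups, while S100a9 was also above it in WT 12m. The mean of that list lay between 6.30 and 6.45 in APP 12m and 6.35 and 6.52 in TAU 9m, against 6.79 to 7.97 in WT 12m, and S100a8 was called lower in both (-2.54 in APP and -2.12 in TAU). The part of these cells in the lower Tlr5, Nlrp1b and Casp8 signals was not tested. Of 10 border macrophage markers, 4 were above background in APP 12m, in TAU 9m and in WT 12m. Ms4a7 was called higher in gated TAU (3.56), and Folr2 was called higher (0.96) and Cbr2 lower (-1.23) in gated APP. The mean of this list lay between 7.52 and 7.66 in APP 12m and 7.97 and 8.66 in TAU 9m, against 7.56 to 7.87 in WT 12m. The part of such cells in the higher Tlr1, Tlr8 and Pycard signals of gated TAU was not tested. Dendritic cell, T and NK cell, B cell, neuron, astrocyte, oligodendrocyte and endothelial lists were read too. In gated APP the astrocyte gene Gfap (2.43) and the endothelial gene Flt1 (2.08) were called higher, and Pecam1 (-1.17) and Cd209a (-1.03) lower. The other astrocyte markers were not called in gated APP, with differences of -1.12 for Slc1a2, -0.89 for Aldoc, -0.54 for Gja1, -0.30 for Aldh1l1 and 0.015 for Aqp4. In gated TAU the NK cell gene Klrb1c (1.62) was called higher. The means of the astrocyte list lay between 6.77 and 7.88 in APP 12m and 6.48 and 7.53 in TAU 9m, against 7.16 to 7.71 in WT 12m, and those of the endothelial list between 6.81 and 9.28 in APP 12m and 6.90 and 7.15 in TAU 9m, against 6.88 to 7.81 in WT 12m. The means of the T and NK cell list lay between 5.83 and 5.98 in APP 12m and 6.12 and 6.27 in TAU 9m, against 5.60 to 6.36 in WT 12m. The part of these cells in the members' values was not tested.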

How the data were processed

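The authors deposited log2 signals per probe set, made with RMA in the Transcriptome Analysis Console, per the submitters' processing notes. This method subtracts background, brings the arrays to 1 distribution and joins the probes of a set into a single value, which compresses low signals. Versions and genome build are not given in the sources used here. Symbols came from the platform annotation (19572 of 22203 probe sets).

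The values were used as deposited. All 23 samples entered 1 limma 3.58.1 fit (R 4.3.3, a mean per group, eBayes without trend, 17 residual and 5.11 prior degrees of freedom), with two-sided contrasts and an F test over the 6 groups. A probe set was called at a Benjamini-Hochberg adjusted p under 0.05 over all 22203 probe sets of that contrast. The fit was tested on simulated data. Where the lower group was at background, the higher mean was set against that group's background level and written as "at least". The members, lists, markers and alternatives were chosen with earlier results of these data known. Values per sample are given for Tlr2, Tlr4, Tlr7, Cd14, Ly96, Nlrp3, Myd88, Pycard, Casp1, Casp4 and Gsdmd, for the 6 other members with the largest called difference in gated APP and for the next 4 in gated TAU (3 remained); other members named were called or are relatives of these. From the partner lists, up to 3 called genes a direction are named. No pair of arrays held identical values. Same-numbered samples deviated together in part (correlations from -0.35 to 0.47, over 0.1 in 19 of 30 pairs). In the comparisons among gated APP, gated TAU and WT 12m every correlation was positive, from 0.02 to 0.47. The negative ones all involved young groups. The samples were treated as unpaired, and a replicate block was run as an alternative. Whether same-numbered samples were handled together was not tested. Promoters were taken from RefSeq and aligned with Biopython 1.88. Irak1, Irak4, Naip1, Nlrc5 and Traf3 were not analysed here. Alternatives were median centring, quantile normalization, array weights, a trended robust prior, a filter on dim probe sets, fits of the compared groups alone, a Y-linked covariate, a replicate block, each sample left out in turn and, added after seeing the data, WT 12m without replicates 2 and 4.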

Additional observations from a re-analysis of the deposited data

Results flagged for a closer look

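In groups of 4 samples, 3 of 100 sets of values tested had 1 sample far from the other 3, where chance gives about 1 in 20. Nlrp3 in TAU 9m replicate 3 was at 13.23, with the next sample at 12.30. Pycard in TAU 9m replicate 4 was at 14.11, with the next at 14.88. Casp1 in TAU 3m replicate 1 was at 12.59, with the next at 12.00.

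Differences between groups passed the test of the difference itself in 13 results. Gated APP minus gated TAU was 1.07 for Cd14 (adjusted p = 0.0461) and 1.64 for Irak3 (adjusted p = 0.0318). The change with age in APP minus that in WT was 2.98 for Irak3 (adjusted p = 0.00183), 2.73 for Tlr2 (0.000350), 2.53 for Cd14 (0.000187), -2.05 for Tlr5 (0.0170), -1.65 for Nlrp1b (0.0178) and -1.31 for Casp8 (0.000462). The change with age in TAU minus that in WT was 2.49 for Tlr2 (adjusted p = 0.000764), 2.29 for Tlr1 (0.00190), 1.65 for Cd14 (0.0112), -2.15 for Tlr5 (0.0105) and -1.43 for Casp8 (0.000133). The Clec7a gate and the pathologic label were present only at the later age of APP and TAU and cannot be told apart from it. The older TAU samples were also younger than the older WT samples.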

How the results depend on the processing

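Of 672 recomputed values of the 20 members given per sample, 620 kept their side of the threshold, 42 lost the call and 10 gained one. In 14 the sign turned, none of them called in either setting (Casp1, Myd88 and Nlrp3 in gated APP, and Ly96, Nlrp3 and Tlr7 in gated TAU). In gated APP 8 of these 9 called members kept the call in every alternative run, with Tlr1 the exception. In gated TAU 5 of 10 did (Tlr2, Tlr1, Cd14, Tlr5 and Casp8), while Pycard, Nlrp1b, Tlr8, Nlrp9b and Tlr3 did not. The count of members called between gated APP and gated TAU, 2, was 0 under median centring and with only these groups in the fit, 1 under quantile normalization and with array weights, and 0 to 2 with each sample left out in turn. The 5 calls of the TAU change with age against that of WT were 8 under quantile normalization, 10 with array weights, and 5 to 8 with a sample left out (8 without WT 12m replicate 3). With a sample left out, the count in gated TAU against WT 12m was 6 to 10, being 6 without WT 12m replicate 1, 2 or 4 or TAU 9m replicate 1 or 3. The count in APP 12m against APP 3m was 7 to 12, being 7 without APP 3m replicate 2. In gated APP against WT 12m it was 9 to 12. Median centring moved the median of all probe sets by at most 0.10, in the APP interaction. The replicate block gave 11 calls in gated APP and 10 in gated TAU, with Tlr4 added in gated APP (adjusted p = 0.00159). The causes were not tested. The shares of all probe sets called under these settings are not given here, so the counts of members were not set against them. Members near background have compressed differences.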
